A study of Mus musculus with 24 samples.

Results

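The genes described here are 9 leukocyte adhesion molecules and integrins: the endothelial adhesion molecules Icam1, Vcam1 and Selp, the beta-2 integrin chains Itgam, Itgal and Itgb2, and the beta-1 integrin chains Itga4, Itga5 and Itgb1. They were chosen by gene symbol, by matching the Ensembl identifiers of the expression table to mouse GENCODE names, and this rule uses no measured value. All 9 were found among the 18647 genes of the table, and all 9 were among the 18153 genes tested. The data are messenger RNA counts from the microdissected CA1 subfield of the hippocampus of mice after status epilepticus (SE), a prolonged seizure evoked by the muscarinic agonist pilocarpine. There were 15 SE libraries in 5 groups, the first taken 6 h and the last 72 h after SE with 12, 24 and 36 h between, and 9 control (Ctr) libraries in 3 groups (12, 36 and 72 h after saline), with 3 libraries per group. All animals were C57Bl/6N mice from Charles River, at least 60 days old, and all received scopolamine methyl nitrate (1 mg/kg) beforehand and diazepam (4 mg/kg) afterwards. SE mice received pilocarpine hydrochloride (335 mg/kg) and controls received saline. Among pilocarpine-treated mice, those that developed SE were used, so the SE groups are selected for response. The sources used here do not say whether a library is 1 mouse, so the p-values measure the spread between libraries, which may in part be technical.

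Leukocytes leave the blood in steps. Selectins on activated endothelium, such as P-selectin, slow the rolling cell by binding PSGL-1, and the immunoglobulin-type molecules ICAM-1 and VCAM-1 then hold it through integrins, which are heterodimers of an alpha and a beta chain. ICAM-1 binds the beta-2 integrins LFA-1 (Itgal with Itgb2) and Mac-1 (Itgam with Itgb2), and VCAM-1 binds VLA-4 (Itga4 with Itgb1). The same beta-1 chain pairs with Itga5 to form the main fibronectin receptor. In brain tissue Itgam and Itgb2 are also expressed by resident microglia, and Vcam1 and Itgb1 by several cell types, so a bulk measurement does not assign these messages to blood cells or to the vessel wall. In bulk tissue, fewer cells of a type and less RNA per cell cannot be told apart.

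The libraries held 2663936 to 30133731 counts (median 13521590). The lowest totals were both of Ctr 72 h, 2663936 in replicate 3 and 5793721 in replicate 2. Markers of sensory ganglion, a tissue that is no part of CA1, summed to over 100 CPM (counts scaled to a common library total) in 6 libraries and to at most 64.9 CPM in the other 18. The 6 were SE 6 h replicate 3, SE 12 h replicate 1, SE 36 h replicate 3, Ctr 72 h replicate 2, SE 72 h replicate 1 and SE 72 h replicate 2. Ctr 72 h replicate 2 had the highest sum (1580 CPM). It held the highest control value of Itgal, Itga5 and Itgb1 and the lowest of Itgam and Itgb2. CA1 neuron markers were abundant in every library (4480 to 13400 CPM in sum). The numbers in the sample labels fall into 3 ranges, and no range holds both SE and Ctr libraries of 72 h, nor both SE 24 h and any control library, so in these comparisons SE and the label range cannot be told apart within a range. Values below are CPM on library totals scaled by TMM, and log2 fold changes (log2FC) come from a single edgeR quasi-likelihood fit over all 24 libraries with 1 factor of unwanted variation. That factor stood at -0.378, 0.802 and -0.368 in Ctr 72 h replicates 1, 2 and 3, and at most 0.140 in absolute size in any other library. A gene was called when its Benjamini-Hochberg adjusted p was at most 0.05 and its absolute log2FC at least 0.66, or at least 1 between SE time points. SE 6 h and SE 24 h have no controls of their own time and were set against all 9 controls, which both comparisons share.

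Most of the 9 genes were higher after SE at every time, and Itga4 was lower. At 6 h, 5 members were called higher and 1 lower, where 22% of all genes tested were called (15.8% higher, 6.21% lower). At 12 h it was again 5 higher and 1 lower, against 25.2% of all genes called (13.9% higher, 11.4% lower). At 24 h, 7 were higher and 1 lower, against 24.1% (14.9% higher, 9.21% lower). At 36 h the count was also 7 higher and 1 lower, against 21.6% (12.7% higher, 8.91% lower). At 72 h, 6 were higher and 1 lower, against 19.4% (15.2% higher, 4.2% lower). In a further fit a factor for the 3 ranges of the label numbers replaced the factor of unwanted variation. There 4 members in all were called at 72 h, and Icam1, Itga4 and Itgb1 were no longer called. Vcam1 and Itgam then lost their calls at 24 h, Itgam at 36 h and Itgal at 6 h. With neither factor, Itgam at 24 h and Itgal at 6 h lost their calls too. Without the 6 libraries high in ganglion markers, 5, 6, 7, 8 and 5 members were called from the first time to the last. The calls and log2FC that follow are again from the single fit over all 24 libraries with the factor of unwanted variation. In it Icam1, Itgb2, Itga5 and Itgb1 were called higher and Itga4 lower in all 5 comparisons. The median log2FC of the 9 members was 0.89, 1.34, 1.16, 1.50 and 1.72 from 6 h to 72 h, and that of all genes tested lay between 0.00 and 0.10. SE and control libraries did not overlap for 4, 6, 5, 7 and 7 members in the same order. Over all genes tested the share without overlap was 22.2%, 47.7%, 23.6%, 51.9% and 32.8%, the larger shares standing where 3 libraries were set against 3.

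**Figure D1:**
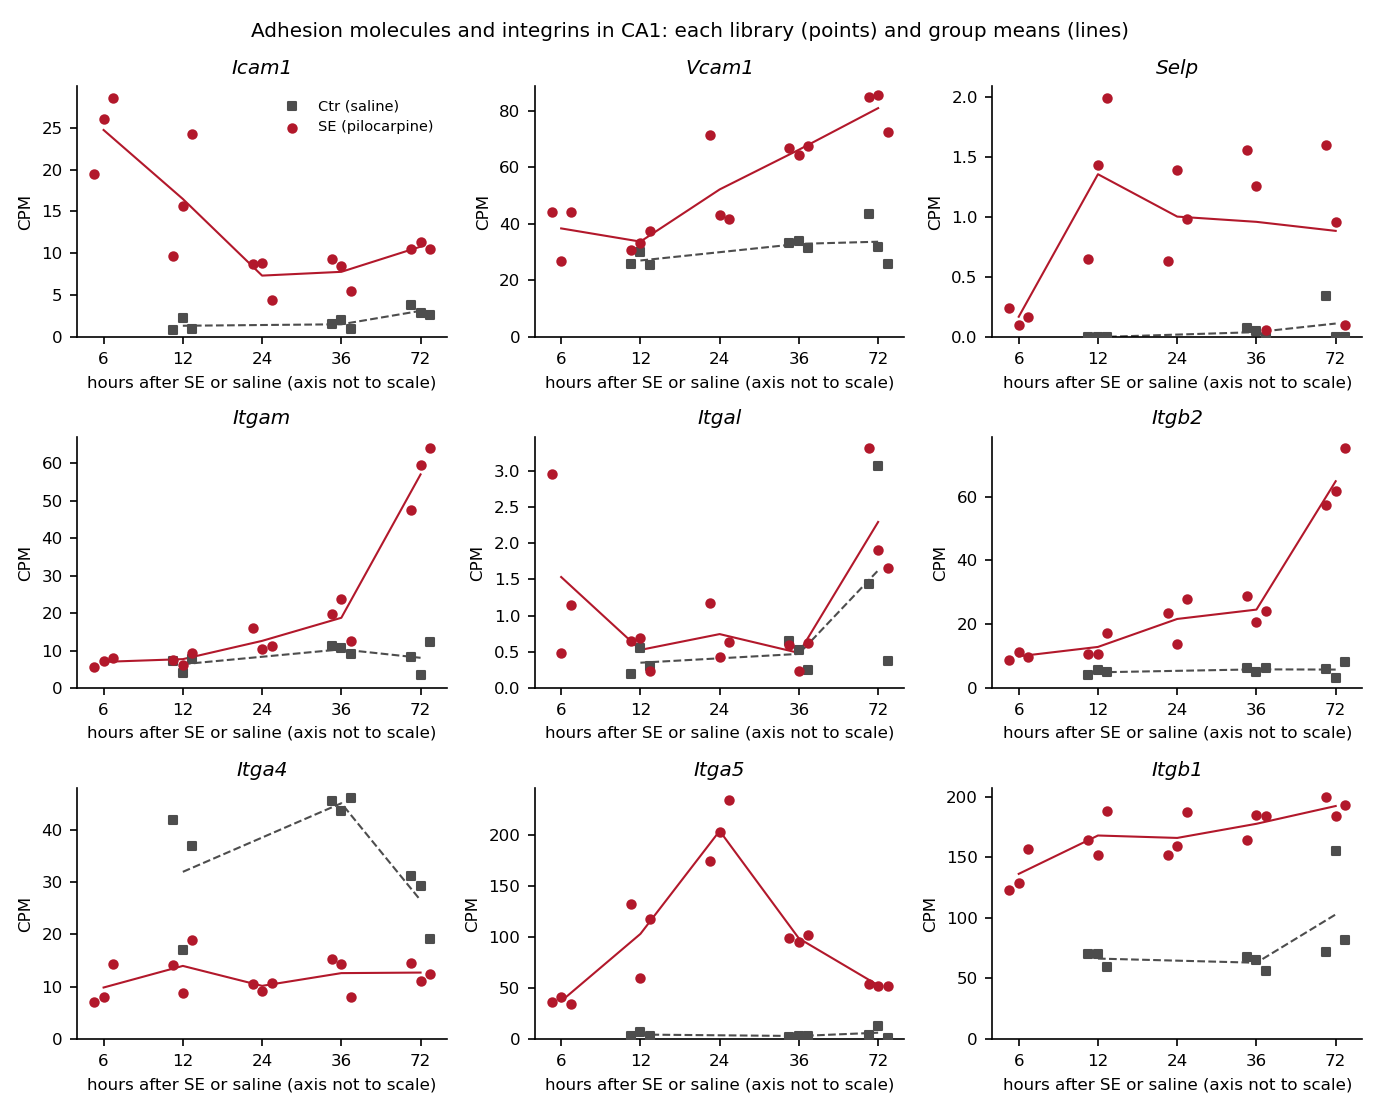
Expression of the 9 genes in each of the 24 libraries, in CPM on linear axes from 0, against hours after SE or saline (categories, not to scale); each point is 1 library (red SE, gray Ctr) and lines join the group means. Icam1, Itga5 and Itgb2 lie above the controls at every SE time, Itga4 lies mostly below them, and Itgam and Itgb2 are highest at 72 h.

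The bases upstream of the start sites are shown first for the endothelial adhesion molecules, since these genes are textbook targets of inflammatory transcription factors. Each sequence is the 250 bases before the canonical start in GENCODE M39 on GRCm39, read 5′ to 3′ on the strand of the gene. Capitals mark matches, on either strand, to an NF-kB type motif (GG, any 4 bases, then TTCC) or an AP-1 type motif (TGANTCA, the same on both strands); a PU.1 type (GAGGAAG), a Runx type (TGTGGT) and a STAT type motif (TTCNNNGAA) were also searched. The positions are chr9:20926422-20926671 on the plus strand for Icam1, chr3:115923348-115923597 on the minus strand for Vcam1 and chr1:163942583-163942832 on the plus strand for Selp.
Icam1: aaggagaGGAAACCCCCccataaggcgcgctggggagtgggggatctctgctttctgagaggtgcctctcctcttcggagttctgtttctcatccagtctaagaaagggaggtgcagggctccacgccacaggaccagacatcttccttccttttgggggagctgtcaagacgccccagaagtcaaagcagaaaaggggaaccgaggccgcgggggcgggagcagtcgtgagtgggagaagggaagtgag
Vcam1: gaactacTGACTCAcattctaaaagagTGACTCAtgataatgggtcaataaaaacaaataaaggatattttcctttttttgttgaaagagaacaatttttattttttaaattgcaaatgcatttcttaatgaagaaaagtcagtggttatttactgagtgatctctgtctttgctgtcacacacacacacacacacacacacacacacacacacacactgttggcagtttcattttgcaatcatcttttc
Selp: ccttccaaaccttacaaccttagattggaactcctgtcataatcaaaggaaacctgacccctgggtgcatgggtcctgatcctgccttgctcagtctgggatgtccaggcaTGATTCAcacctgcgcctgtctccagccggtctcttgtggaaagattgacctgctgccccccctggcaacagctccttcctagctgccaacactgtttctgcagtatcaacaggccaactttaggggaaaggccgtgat
The Icam1 window held an NF-kB type match at 243 to 234 bases before the start. The Vcam1 window held AP-1 type matches at 243 to 237 and at 223 to 217 bases, and the Selp window held 1 at 139 to 133 bases. Of 18552 such windows over all genes matched, 16.3% held the NF-kB type pattern and 5.22% the AP-1 type letters. Among the 9 members, 1 held the former and 2 the latter. A match of letters is a description of the sequence and not evidence of binding.

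Icam1 (chr9:20926672-20940113, plus strand) encodes the endothelial ligand of the beta-2 integrins and is also made by glia and leukocytes. Its SE level was highest at 6 h, lower at 24 h, and not lower again at 36 or 72 h. In the 9 controls it ranged from 0.852 to 3.88 CPM (median 2.09). At 6 h the 3 SE libraries held 19.5, 26.1 and 28.6 CPM, at 12 h 9.69, 15.6 and 24.2 CPM, and at 24 h 8.71, 8.84 and 4.48 CPM. All of these lay above all 9 controls. At 36 h the values were 9.34, 8.51 and 5.53 CPM against 1.51, 2.09 and 0.986 CPM in Ctr, and at 72 h 10.5, 11.4 and 10.5 CPM against 3.88, 2.9 and 2.62 CPM. Again the groups did not overlap. The log2FC was 3.70 at 6 h (standard error 0.27, adjusted p = 3.5e-09, 13-fold), 3.59 at 12 h (standard error 0.39, adjusted p = 1.19e-06, 12.1-fold) and 1.95 at 24 h (standard error 0.28, adjusted p = 1.67e-05, 3.86-fold). It was 2.30 at 36 h (standard error 0.38, adjusted p = 0.000116, 4.92-fold) and 1.72 at 72 h (standard error 0.39, adjusted p = 0.00256, 3.29-fold). Without Ctr 12 h replicate 2 the log2FC at 12 h was 4.20. At 72 h Icam1 was not called without the 6 libraries high in ganglion markers (log2FC 1.59, adjusted p = 0.0591), where 1 SE library is left. Of the exon bases of Icam1, 10.3% are shared with an antisense gene, Gm47079, which held at most 34 counts in a library.

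Vcam1 (chr3:115903598-115923355, minus strand), the endothelial ligand of VLA-4, rose late. In the 9 controls its level was 25.3 to 43.5 CPM (median 31.5). At 6 h the SE libraries held 44.3, 26.8 and 44.1 CPM, and at 12 h 30.6, 33.2 and 37.4 CPM, within or near the range of the controls. At 24 h they held 71.5, 43.3 and 41.7 CPM, so that replicate 1 lay far above the other 2. At 36 h all 3 SE libraries (66.8, 64.2 and 67.6 CPM) were above the Ctr libraries (33.4, 33.9 and 31.5 CPM), and at 72 h the SE libraries (84.7, 85.7 and 72.3 CPM) were again above the Ctr libraries (43.5, 31.7 and 25.9 CPM). The log2FC of 0.30 at 6 h (adjusted p = 0.156) and of 0.32 at 12 h (adjusted p = 0.236) did not pass the test. Vcam1 was called at 24 h (log2FC 0.73, standard error 0.16, adjusted p = 0.00119, 1.66-fold), at 36 h (log2FC 1.01, standard error 0.20, adjusted p = 0.000805, 2.01-fold) and at 72 h (log2FC 1.23, standard error 0.21, adjusted p = 0.000187, 2.35-fold). The call at 24 h rested on SE 24 h replicate 1, without which the log2FC was 0.44 (adjusted p = 0.0407). It was also lost with limma-voom (log2FC 0.64) and with the label ranges as a term (log2FC 0.62, adjusted p = 0.0726).

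Selp (chr1:163942833-163977595, plus strand) encodes P-selectin, which endothelium and platelets store and display on activation. It was rare throughout. The Ctr libraries held 0, 0 and 0 counts at 12 h, 1, 1 and 0 at 36 h, and 4, 0 and 0 at 72 h. The SE libraries held 3, 1 and 4 counts at 6 h, 13, 43 and 25 at 12 h, and 6, 32 and 14 at 24 h. At 36 h they held 21, 16 and 1 counts, and at 72 h 27, 10 and 2 counts, so the last replicate of each overlapped the controls. The highest level was 1.99 CPM, in SE 12 h replicate 3, and the highest control level was 0.338 CPM. On summed counts per total, Selp at 12 h was at least 21.9-fold higher when Ctr is set to a floor of 3 counts over the group, and the 95% interval of the ratio to the 0 counts found begins at 17.4. The ratio of the SE 6 h to the control level was 3.36 (95% interval 1.02 to 11.7). It was 21.6 (9.3 to 61.7) for SE 24 h, 19.7 (5.08 to 168) for SE 36 h and 4.15 (1.5 to 16) for SE 72 h, and these intervals cover counting error only. Of the 6 counts in all controls, 4 came from Ctr 72 h replicate 1. In the fit across all genes Selp was called at 12 h (adjusted p = 0.00115), 24 h (adjusted p = 0.000323) and 36 h (adjusted p = 0.0159), but not at 6 h (adjusted p = 0.098) or 72 h (adjusted p = 0.0915). The call at 36 h was lost without Ctr 36 h replicate 2, Ctr 36 h replicate 3 or SE 36 h replicate 1 (adjusted p 0.0558 to 0.0666), as it was with limma-voom (adjusted p = 0.121). Without SE 72 h replicate 3 Selp was called at 72 h (adjusted p = 0.0054), whereas its fitted log2FC at 72 h turned negative with the label ranges as a term (-1.11, adjusted p = 0.674). It was also negative without the 6 libraries high in ganglion markers (-1.32), where SE 72 h replicate 3, with 2 counts, is the 1 SE library left at 72 h. Of its exon bases, 26% are shared with antisense RNAs, so at these counts the reads cannot be assigned to a strand.

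Summed endothelium markers were higher in most SE libraries than in the controls. The median log2FC of the 10 markers was 0.15, 0.62, 0.72, 0.62 and 0.36 from 6 h to 72 h. The 10 markers summed to 257 to 357 CPM in the controls and to 328 to 502 CPM in the SE libraries, with all 3 SE libraries above all 9 controls at 6, 24 and 72 h and 2 of 3 at 12 and 36 h. Of the 10, those called higher numbered 3, 5, 6, 4 and 3 in order of time, and those called lower 2, 1, 1, 1 and 0. Cdh5, the cadherin of endothelial junctions, was called at all 5 times (log2FC 1.99, 1.42, 1.56, 1.33 and 0.77). Cldn5, the main claudin of brain endothelial tight junctions, was called at 24 h (log2FC 0.71) and 72 h (1.31). Emcn, an endothelial surface sialomucin, was called from 12 h (log2FC 0.90, 1.16, 1.29 and 0.98). The part of these shifts in the values of Icam1, Vcam1 and Selp was not tested. The 5 mural cell markers summed to 150 to 282 CPM after SE and 162 to 252 CPM in controls, with 1, 1, 2, 2 and 1 called higher and 1, 1, 0, 0 and 0 lower at the 5 times.

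**Figure D2:**
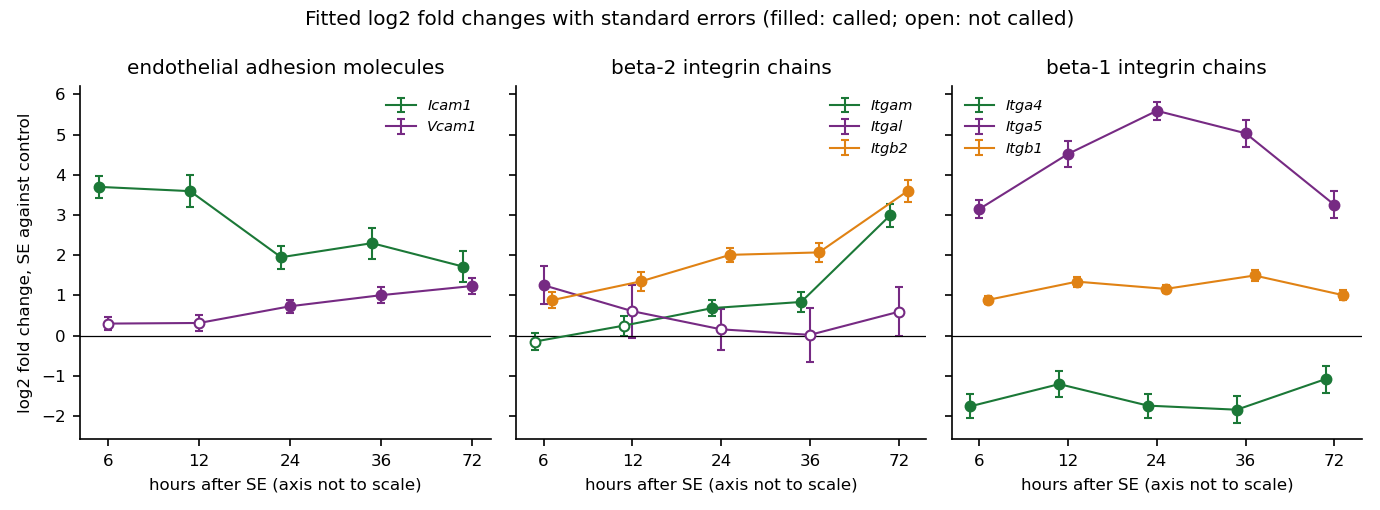
The log2FC of 8 members (Selp, whose controls hold few counts, is left out) by hours after SE (categories, not to scale), SE 6 h and 24 h against all 9 controls and the others against Ctr of the same time; bars are the standard error of the fit and filled points are called. Icam1 stands at 3.70 at 6 h and 1.72 at 72 h, Itga5 is highest at 24 h (5.59), and Itgam and Itgb2 reach 2.99 and 3.60 at 72 h.

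The upstream windows of both beta-2 alpha chains are shown because each held a match to the PU.1 type motif (GAGGAAG, either strand, in capitals), whose factor is a master regulator of myeloid genes. They lie at chr7:127661558-127661807 for Itgam and chr7:126895182-126895431 for Itgal, both on the plus strand of GRCm39.
Itgam: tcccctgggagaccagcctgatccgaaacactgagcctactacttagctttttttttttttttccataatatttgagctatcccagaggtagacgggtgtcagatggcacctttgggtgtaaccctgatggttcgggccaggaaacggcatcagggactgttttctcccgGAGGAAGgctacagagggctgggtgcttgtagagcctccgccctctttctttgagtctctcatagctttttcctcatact
Itgal: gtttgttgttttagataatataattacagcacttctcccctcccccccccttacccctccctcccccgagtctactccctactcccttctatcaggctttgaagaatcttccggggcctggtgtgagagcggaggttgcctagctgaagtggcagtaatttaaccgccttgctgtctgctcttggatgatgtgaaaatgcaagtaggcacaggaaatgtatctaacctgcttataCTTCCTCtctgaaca
The match lay 80 to 74 bases before the start of Itgam and 15 to 9 bases before that of Itgal, and 10.7% of all windows held these letters. The Runx type letters stood in 12.6% and the STAT type letters in 6.63% of all windows, and in none of the 9 members' windows.

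Itgb2 (chr10:77366086-77401542, plus strand), the beta chain shared by LFA-1 and Mac-1, was above the controls from the first time point and highest at 72 h. Between consecutive SE times, only its step from 36 to 72 h was called. Control levels ranged from 3.24 to 8.25 CPM (median 5.74, 9 libraries). The SE libraries held 8.79, 11.2 and 9.89 CPM at 6 h, 10.7, 10.8 and 17.2 CPM at 12 h, and 23.4, 13.7 and 27.9 CPM at 24 h. They held 28.8, 20.8 and 24.2 CPM at 36 h and 57.5, 61.9 and 75.1 CPM at 72 h. Each of the 15 SE libraries exceeded each of the 9 controls. The log2FC was 0.88 at 6 h (standard error 0.19, adjusted p = 0.000952, 1.85-fold), 1.35 at 12 h (standard error 0.23, adjusted p = 0.000169, 2.55-fold) and 2.01 at 24 h (standard error 0.18, adjusted p = 2.17e-08, 4.02-fold). It was 2.07 at 36 h (adjusted p = 1.53e-06, 4.2-fold) and 3.60 at 72 h (standard error 0.26, adjusted p = 6.36e-09, 12.1-fold). Without Ctr 72 h replicate 2, the lowest control, the log2FC at 72 h was 3.26 and still called.

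Itgam (chr7:127661808-127717753, plus strand), the CD11b chain of Mac-1 and a common myeloid marker, rose late. The 9 controls held 3.58 to 12.4 CPM (median 8.27). At 6 h the SE libraries held 5.59, 7.25 and 8.15 CPM and at 12 h 7.5, 6.2 and 9.48 CPM, all within the range of the controls. They held 16, 10.5 and 11.3 CPM at 24 h, overlapping the controls, and 19.9, 23.8 and 12.6 CPM at 36 h, above the Ctr libraries of that time (11.1, 10.8 and 9.12 CPM). At 72 h they held 47.5, 59.6 and 64 CPM against 8.27, 3.58 and 12.4 CPM in Ctr. The log2FC of -0.15 at 6 h (adjusted p = 0.615) and 0.25 at 12 h (adjusted p = 0.464) did not pass. Itgam was called at 24 h (log2FC 0.69, standard error 0.20, adjusted p = 0.00973, 1.61-fold), at 36 h (log2FC 0.84, standard error 0.25, adjusted p = 0.0127, 1.79-fold) and at 72 h (log2FC 2.99, standard error 0.28, adjusted p = 1.29e-07, 7.93-fold). Without Ctr 72 h replicate 2, the lowest control, the log2FC at 72 h was 2.52 and still called. The earlier calls were fragile: that at 24 h was lost without any 1 of Ctr 12 h replicate 2 (log2FC 0.62), SE 24 h replicate 1 (0.48), Ctr 36 h replicate 3 (0.66) or Ctr 72 h replicate 2 (0.53), and that at 36 h without Ctr 36 h replicate 3 (0.76) or SE 36 h replicate 2 (0.63). Once the label ranges were a term, the adjusted p was 0.192 for SE 24 h and 0.0625 for SE 36 h, and at 24 h the log2FC also fell below the threshold with limma-voom (0.65), without the RUVr factor (0.65), with a ganglion marker score (0.61) and without the ganglion-high libraries (0.53). Of the exon bases of Itgam, 67.4% are shared in GENCODE M39 with a gene on the same strand, Gm49368, so the absolute level of Itgam is uncertain.

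Itgal (chr7:126895432-126934320, plus strand), the CD11a chain of LFA-1 found mainly on lymphocytes and other leukocytes, stayed at low levels, with SE and control libraries overlapping at each time. Control levels ran from 0.189 to 3.07 CPM (median 0.522), and without Ctr 72 h replicate 2 at most 1.43 CPM. The SE libraries held 2.96, 0.49 and 1.15 CPM at 6 h, 0.646, 0.696 and 0.239 CPM at 12 h, and 1.17, 0.435 and 0.631 CPM at 24 h. They held 0.593, 0.236 and 0.627 CPM at 36 h and 3.31, 1.91 and 1.66 CPM at 72 h. Itgal was called at 6 h (log2FC 1.25, standard error 0.47, adjusted p = 0.041), where SE 6 h replicate 1 held the highest value, and without it the log2FC was 0.41 (adjusted p = 0.586). The call at 6 h was also lost without SE 6 h replicate 3, Ctr 12 h replicate 1 or 3, Ctr 36 h replicate 2 or 3, or Ctr 72 h replicate 3, and without the 6 libraries high in ganglion markers (adjusted p = 0.0883), without the RUVr factor, with limma-voom, with the label ranges, with a ganglion marker score and with the compared groups only (adjusted p 0.0578 to 0.185). The log2FC was 0.61 at 12 h (adjusted p = 0.494), 0.16 at 24 h (adjusted p = 0.839), 0.02 at 36 h (adjusted p = 0.988) and 0.59 at 72 h (adjusted p = 0.502). At 24 h its sign turned without SE 24 h replicate 1 (-0.28). At 36 h it turned without Ctr 36 h replicate 3 (-0.26), SE 36 h replicate 1 (-0.14) or SE 36 h replicate 3 (-0.20). Without Ctr 72 h replicate 2 the log2FC at 72 h was 1.06 (adjusted p = 0.259).

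Microglia markers moved with the beta-2 chains only in part. The 9 markers summed to 300 to 427 CPM in the controls, to 207 to 218 CPM at 6 h and to 226 to 277 CPM at 12 h, below all controls, at times when Itgb2 was already above them. The sum was 364 to 503 CPM at 24 h, 474 to 573 CPM at 36 h and 937 to 1450 CPM at 72 h, the last 2 ranges above all controls. Of the 9 markers, 7 were called lower at 6 h and 4 at 12 h, 2 higher and 2 lower at 24 h, 3 higher and 2 lower at 36 h, and 8 higher at 72 h. P2ry12, a purinergic receptor of resting microglia, was called lower up to 36 h (log2FC -3.55, -3.69, -2.75 and -2.12) and higher at 72 h (0.69). Tmem119, another marker of resident microglia, was lower at 6 and 12 h (log2FC -2.74 and -1.90) and higher at 72 h (2.05). Monocyte and neutrophil markers, of which 5 of 10 were in the table, summed to 0 to 16.5 CPM in controls (0 to 4.12 CPM without Ctr 72 h replicate 2) and to 0.473 to 23.3 CPM after SE. The highest sums at 6, 12 and 36 h (4.71, 8.25 and 10.8 CPM) and both higher sums at 72 h stood in libraries that were also high in ganglion markers, as did the highest control sum. Of the 5 tested, 3, 1, 2, 1 and 3 were called higher at the 5 times. Ccr2, the chemokine receptor of inflammatory monocytes, was called higher at 6 h (log2FC 3.24), 36 h and 72 h (3.44), with at most 6.86 CPM in a library and 0 counts in the Ctr 36 h libraries. Ly6g, a neutrophil marker, was not among the genes of the table. Of 9 lymphocyte markers, 2 were in the table, with sums of 0 to 2.56 CPM in controls and 0.228 to 2.17 CPM after SE, and the 1 tested, Cd4, was called higher at 6 and 24 h. The share of these cells in the values of Itgam, Itgal and Itgb2 was not tested.

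**Figure D3:**
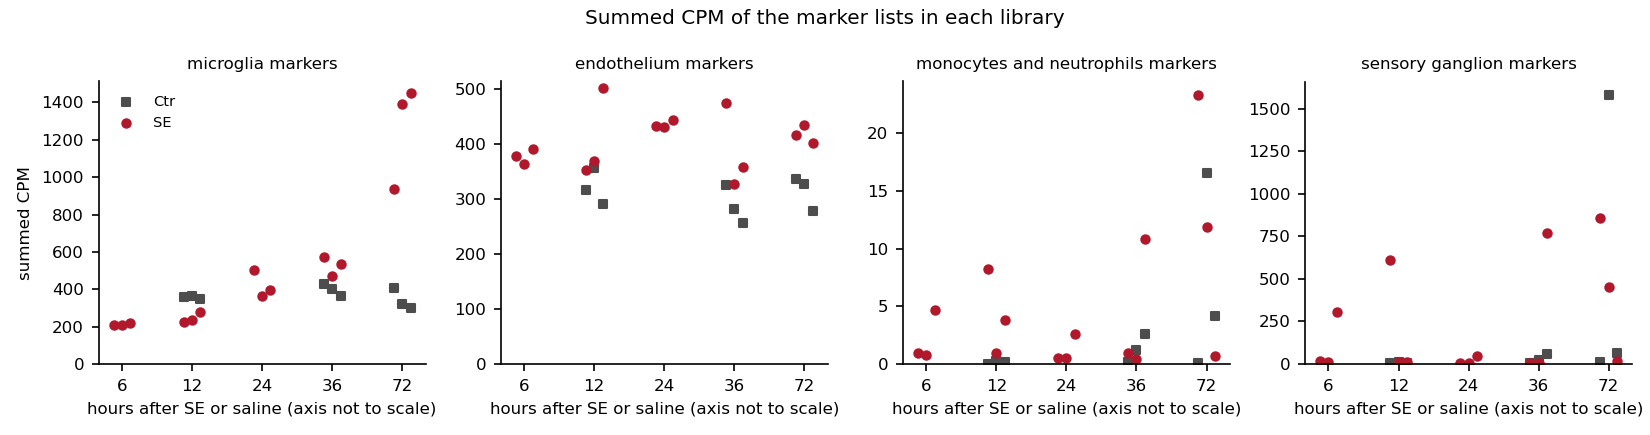
Summed CPM of the microglia, endothelium, monocyte and neutrophil, and sensory ganglion markers in each library (linear axes) against hours after SE or saline (categories, not to scale); each point is 1 library, red for SE and gray for Ctr. Microglia markers fall below the controls at 6 and 12 h and lie above them at 36 and 72 h, when they reach 937 to 1450 CPM.

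Itga5 (chr15:103252713-103275270, minus strand), the alpha chain of the fibronectin receptor, showed the largest log2FC of the 9 members at 24 and 36 h. Control levels lay between 1.5 and 12.8 CPM (median 3.2), and without Ctr 72 h replicate 2 at most 7.33 CPM. The SE libraries held 36.1, 40.8 and 34.4 CPM at 6 h, 132, 59.7 and 117 CPM at 12 h, and 174, 203 and 234 CPM at 24 h. They held 98.7, 94.7 and 102 CPM at 36 h and 53.8, 52 and 52.1 CPM at 72 h. Every SE library lay above every control. The log2FC was 3.15 at 6 h (standard error 0.22, adjusted p = 2.92e-09, 8.86-fold), 4.52 at 12 h (standard error 0.32, adjusted p = 9.38e-09, 22.9-fold) and 5.59 at 24 h (standard error 0.22, adjusted p = 2.45e-13, 48.2-fold). It was 5.03 at 36 h (standard error 0.33, adjusted p = 1.73e-09, 32.7-fold) and 3.25 at 72 h (standard error 0.33, adjusted p = 4.77e-07, 9.52-fold). Without Ctr 12 h replicate 2 the log2FC at 12 h was 5.13, and without Ctr 72 h replicate 2 that at 72 h was 3.83, the direction and the call holding in both.

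Itga4 (chr2:79085660-79163467, plus strand), the alpha chain of VLA-4 and thus the partner of Vcam1, was the 1 member that fell. The 9 controls held 17 to 46 CPM (median 36.9). The SE libraries held 7.11, 8.03 and 14.4 CPM at 6 h and 10.6, 9.19 and 10.7 CPM at 24 h, below all 9 controls. At 12 h they held 14.1, 8.82 and 19 CPM against 41.9, 17 and 36.9 CPM in Ctr, where SE replicate 3 lay above Ctr replicate 2. At 36 h they held 15.3, 14.4 and 8.09 CPM against 45.5, 43.6 and 46 CPM, and at 72 h 14.6, 11 and 12.5 CPM against 31.1, 29.3 and 19.1 CPM, without overlap. The log2FC was -1.76 at 6 h (standard error 0.30, adjusted p = 0.000111, 3.38-fold lower), -1.20 at 12 h (standard error 0.33, adjusted p = 0.00631, 2.3-fold lower) and -1.74 at 24 h (standard error 0.30, adjusted p = 9.95e-05, 3.34-fold lower). It was -1.84 at 36 h (standard error 0.33, adjusted p = 0.000254, 3.58-fold lower) and -1.08 at 72 h (standard error 0.33, adjusted p = 0.0205, 2.11-fold lower). The call at 12 h was lost when only the compared groups were fitted (log2FC -1.18, adjusted p = 0.0754). The call at 72 h was lost without Ctr 72 h replicate 1 (log2FC -0.90), SE 72 h replicate 2 (-0.99) or SE 72 h replicate 3 (-1.07), and without the 6 libraries high in ganglion markers (-1.06, adjusted p = 0.115). Of the exon bases of Itga4, 20.8% are shared with the antisense gene Cerkl, which held at most 60 counts in a library. CA1 neuron markers were lower as well, but in every SE library only from 12 h. The 6 markers summed to 7680 to 13400 CPM in controls and to 4480 to 8450 CPM after SE. At 6 h 1 of 3 SE libraries lay below all 9 controls, and at each later time all 3 did. Of the 6 markers, 0, 2, 3, 3 and 4 were called lower at the 5 times, among them the synaptic vesicle gene Syt1 and the kinase gene Camk2a. Their part in the fall of Itga4 was not tested.

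Itgb1 (chr8:129411876-129460618, plus strand), the common beta-1 chain, had the highest level per kilobase of the 9 members and rose by 1.85-fold to 2.82-fold. Its control values were 56 to 155 CPM (median 69.9), and at most 82.1 CPM without Ctr 72 h replicate 2. The SE libraries held 123, 129 and 157 CPM at 6 h, 164, 152 and 188 CPM at 12 h, and 152, 159 and 187 CPM at 24 h. They held 164, 185 and 184 CPM at 36 h and 200, 184 and 193 CPM at 72 h. SE libraries overlapped the controls at 6 and 24 h through Ctr 72 h replicate 2 alone. The log2FC was 0.89 at 6 h (standard error 0.10, adjusted p = 7.83e-07, 1.85-fold), 1.34 at 12 h (standard error 0.13, adjusted p = 2.2e-07, 2.54-fold) and 1.16 at 24 h (standard error 0.10, adjusted p = 9.19e-09, 2.24-fold). It was 1.50 at 36 h (standard error 0.13, adjusted p = 3.65e-08, 2.82-fold) and 1.01 at 72 h (standard error 0.13, adjusted p = 6.23e-06, 2.01-fold). Without Ctr 72 h replicate 2 the log2FC of SE 6 h, 24 h and 72 h was 1.00, 1.27 and 1.34.

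The messages of Itga5 and Itga4, which both encode alpha chains that pair with Itgb1, differed in their ratio between SE and control libraries. This ratio does not cover other alpha chains, and pairing was not measured. Per kilobase of exon, the ratio of the Itga5 level to the Itga4 level was 0.169 to 1.37 in the 9 controls (median 0.247) and 7.49 to 69.4 in the 15 SE libraries (median 20.3). By time, the ratio ran from 7.49 to 16 in SE 6 h, from 19.4 to 29.4 in SE 12 h, from 51.3 to 69.4 in SE 24 h, from 20.3 to 39.5 in SE 36 h and from 11.6 to 14.9 in SE 72 h. No SE library overlapped a control. The ratio of Itgam to Itgal, whose chains both pair with Itgb2, overlapped between controls (1.5 to 48.3) and SE libraries (2.43 to 130).

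Levels per kilobase of exon give the order of the members. In the 9 controls the mean level was 13 ± 5.02 CPM per kb for Itgb1 (SD, n = 9), 3.48 ± 0.633 for Vcam1 and 2.06 ± 0.661 for Itga4. Their ranges did not overlap. From Itga4 downward neighbours overlapped, through Itgb2 (1.71 ± 0.444 CPM per kb), Itgam (1.61 ± 0.587), Itga5 (0.856 ± 0.656), Icam1 (0.404 ± 0.208), Itgal (0.124 ± 0.14) and Selp (0.0116 ± 0.0251). At 12 h after SE, Itga5 had moved to second place (19.3 ± 7.16 CPM per kb, n = 3) behind Itgb1 (28.2 ± 3.08), and Itgb2 (3.97 ± 1.15), Vcam1 (3.75 ± 0.383) and Icam1 (3.32 ± 1.47) followed with overlapping ranges. At 72 h the order was Itgb1 (32.2 ± 1.32 CPM per kb, n = 3), Itgb2 (20 ± 2.83), Itgam (11.1 ± 1.67), Itga5 (9.89 ± 0.188) and Vcam1 (8.99 ± 0.832), where Itgam and Itga5 overlapped. Itga4 stood at 0.758 ± 0.108 CPM per kb at that time, below Icam1 (2.17 ± 0.102).

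**Figure D4:**
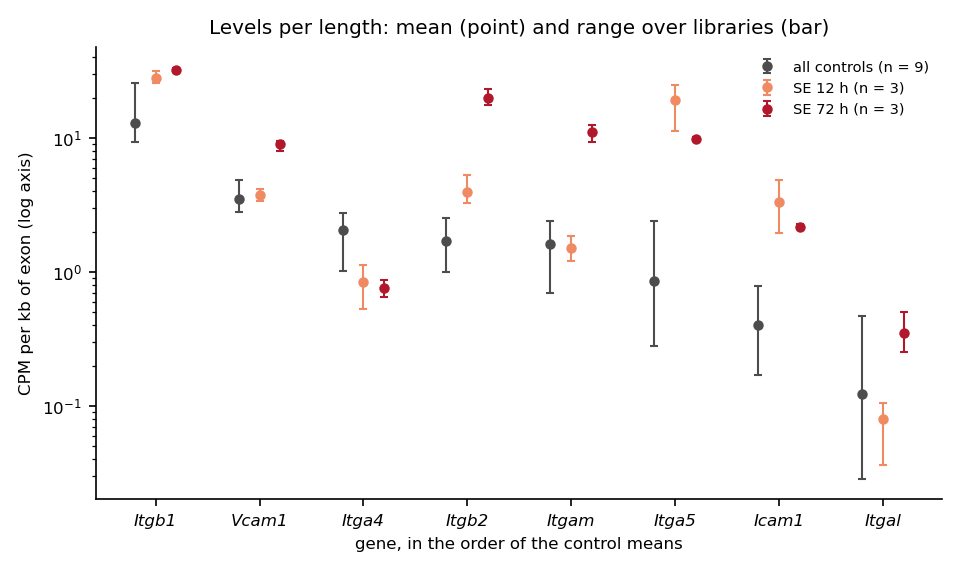
Mean level of 8 members (Selp left out) in CPM per kilobase of exon on a log axis, in the 9 controls (gray), SE 12 h (orange) and SE 72 h (red, 3 libraries each), with genes in the order of the control means; bars span the lowest to the highest library. Itgb1 leads in the controls and after SE, Itga5 comes second at 12 h, and Itgb2 is second at 72 h (20 CPM per kb).

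Between consecutive SE times at most 3 of the 9 members were called. From 6 to 12 h 1 of 9 was called, against 1.34% of all genes: Itga5 was 2.72-fold higher at 12 h (log2FC 1.45, standard error 0.27, adjusted p = 0.00644), a call not made without the 6 libraries high in ganglion markers (adjusted p = 0.0661), with the label ranges (adjusted p = 0.0611) or with the compared groups only (adjusted p = 0.0755). From 12 to 24 h 1 of 9 was called, against 3.18%: Icam1 was 2.21-fold lower at 24 h (log2FC -1.14, standard error 0.34, adjusted p = 0.0411). That call was lost without SE 12 h replicate 2 or 3 and without each SE 24 h library in turn (log2FC -1.32 to -0.78, adjusted p 0.051 to 0.196), and also without the RUVr factor (adjusted p = 0.0584) and with the compared groups only (adjusted p = 0.184). From 24 to 36 h no member was called by edgeR, against 0.529% of all genes. Itga5 came near the limits in its later steps but was not called. Its log2FC was 0.997 from 12 to 24 h (adjusted p = 0.0241) and -1.04 from 24 to 36 h (adjusted p = 0.0655). It was -0.90 from 36 to 72 h (adjusted p = 0.0363). From 36 to 72 h 3 of 9 were called, against 4.13%, and they were the 3 beta-2 chains. Itgam was 3.07-fold higher at 72 h (log2FC 1.62, standard error 0.24, adjusted p = 0.000295) and Itgb2 2.62-fold higher (log2FC 1.39, standard error 0.22, adjusted p = 0.000505). Itgal was 4.59-fold higher (log2FC 2.20, standard error 0.62, adjusted p = 0.0283). That call was not made when a single SE 36 h library, SE 72 h replicate 1 or SE 72 h replicate 2 was left out (adjusted p 0.0502 to 0.141). Nor was it made without the RUVr factor, with the label ranges, with a ganglion marker score or with the compared groups only (adjusted p 0.0549 to 0.0837). It was also lost without the 6 libraries high in ganglion markers (log2FC 1.99), where 1 SE 72 h library is left. Against Ctr 72 h, Itgal was not called (log2FC 0.59, adjusted p = 0.502).

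The difference of the SE effect between times was tested where both times have their own controls. Between 12 and 36 h no member was called by edgeR, against 3.38% of all genes. Between 12 and 72 h 5 of 9 were called, 3 higher and 2 lower, against 18.6% of all genes (12.3% higher, 6.31% lower). The effect at 72 h was larger for Itgam (difference in log2FC 2.74, standard error 0.37, adjusted p = 7.7e-05), Itgb2 (2.24, standard error 0.35, adjusted p = 0.000246) and Vcam1 (0.92, standard error 0.29, adjusted p = 0.03). It was smaller for Icam1 (-1.88, standard error 0.55, adjusted p = 0.0189) and Itga5 (-1.27, standard error 0.45, adjusted p = 0.0496). Between 36 and 72 h 3 of 9 were called, 2 higher and 1 lower, against 4.81% (3.69% higher, 1.12% lower). The effect grew for Itgam (2.15, standard error 0.36, adjusted p = 0.00324) and Itgb2 (1.53, standard error 0.34, adjusted p = 0.0152) and shrank for Itga5 (-1.78, standard error 0.46, adjusted p = 0.0299). The differences of Itgam and Itgb2 were called in every fit that left out 1 library, and those of the other members were not. Against 36 h, both calls were lost with the label ranges as a term (adjusted p = 0.0727 for Itgam, 0.206 for Itgb2) and without the 6 libraries high in ganglion markers (0.0886 and 0.0962). That of Itgb2 against 36 h was also lost without the RUVr factor (adjusted p = 0.0523) and with limma-voom (adjusted p = 0.067). Without Ctr 72 h replicate 2, the Itga5 difference was -0.71 against 12 h (adjusted p = 0.369) and -1.19 against 36 h (adjusted p = 0.235). Itga5 lost the call against 12 h in 9 of 12 such fits and against 36 h in 8 of 12, and it also lost the former with a replicate block (-1.28, adjusted p = 0.0558). Both Itga5 differences were also lost without the RUVr factor, with limma-voom, with the label ranges and without the ganglion-high libraries (adjusted p 0.0568 to 0.652). The Vcam1 difference was lost with the label ranges (adjusted p = 0.223) and without the ganglion-high libraries (adjusted p = 0.333), and it lost its call in 7 of 12 such fits (0.79 to 0.91, adjusted p 0.0524 to 0.076). That of Icam1 lost it with limma-voom (adjusted p = 0.0669) and without Ctr 12 h replicate 3, SE 12 h replicate 3 or Ctr 72 h replicate 1 (adjusted p 0.0531 to 0.0592), and was -2.47 without Ctr 12 h replicate 2. For Itga4 (0.12, adjusted p = 0.884) and Itgb1 (-0.34, adjusted p = 0.177) a difference between 12 and 72 h was not detected.

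For each member, the genes with the most similar pattern over the 8 group means were found by the smallest root mean square difference of centered log2 CPM, among 13749 or 13750 genes. The nearest to Itgam were Trem2 (0.19) and Cd37 (0.22), and the nearest to Itgb2 were Ctsz (0.17) and Trim30a (0.17). Icam1 had no close match, the nearest being Gbp2 (0.48) and Galnt15 (0.50). Vcam1 was nearest to Fhod1 and Vcan (0.13 each), Itga5 to Tnfrsf12a (0.22) and Hspb1 (0.34), and Itga4 to Slc9a2 (0.18) and Stk26 (0.19). Itgb1 was nearest to Tln1 (0.12) and Ftl1 (0.13), Selp to Col27a1 (0.18) and Spata13 (0.37), and Itgal to Tppp3 (0.32) and Cd82 (0.33). Tln1 encodes talin, the cytoskeletal protein that binds beta chains of integrins. Such closeness over 8 means is a description and carries no test.

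The related genes of the pathway were counted from lists. Of 19 other integrin chains tested, 5, 8, 7, 10 and 10 were called higher and 0, 0, 2, 1 and 0 lower from 6 h to 72 h, with a median log2FC of 0.45, 0.85, 0.50, 0.90 and 1.21. Itgax, the CD11c chain and a further partner of Itgb2, was higher at all 5 times (log2FC 3.63, 3.68, 2.43, 3.19 and 3.03). Itgav, the alpha chain of vitronectin-type receptors, was called from 12 h on (log2FC 1.52, 1.83, 2.09 and 2.19), and so was its partner Itgb3 (2.05, 1.27, 2.83 and 1.55). At 6 h Itgav missed the fold threshold alone (log2FC 0.648, adjusted p = 0.000126), and Itgb3 stood at 0.45 (adjusted p = 0.254). Itga2b, the platelet partner of Itgb3, was called at all 5 times (log2FC 2.80, 1.65, 2.12, 2.50 and 2.03). Platelet markers, of which 2 of 6 were tested and Itga2b is 1, summed to 6.7 to 20.1 CPM after SE and 0.853 to 12 CPM in controls, and Pf4, a platelet chemokine, was called at 24 h (log2FC 1.93) and 36 h (2.35). Counts called higher in that list were 1, 1, 2, 2 and 1.

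Among 17 other selectins, selectin ligands and immunoglobulin-type adhesion molecules tested, 8, 7, 7, 10 and 6 were called higher and 2, 3, 4, 3 and 1 lower. Sele, E-selectin of activated endothelium, had 0 counts in Ctr 12 h and Ctr 36 h and 4 counts in Ctr 72 h, and it held 1.28 ± 0.365 CPM at 6 h, 2.75 ± 1.4 CPM at 12 h and 0.835 ± 0.173 CPM at 24 h (SD, n = 3). It was called higher at 6, 12, 24 and 36 h and not at 72 h (adjusted p = 0.422), with 0.116 ± 0.0703 CPM. Selplg, which encodes the P-selectin ligand PSGL-1, moved the other way: it fell from 32.9 ± 0.22 CPM in Ctr 12 h to 2.6 ± 0.201 CPM in SE 12 h, and rose from 37.5 ± 7.85 CPM in Ctr 72 h to 90.5 ± 20.9 CPM in SE 72 h (SD, n = 3). Its log2FC was -2.71, -3.65, -1.50, -1.09 and 1.29 at the 5 times, all called. Cd44, a hyaluronan receptor and selectin ligand, was higher at all times (log2FC 3.89, 5.61, 6.17, 6.81 and 3.67), and Icam5, an adhesion molecule of neurons, was lower at all times (-0.80, -1.09, -0.91, -1.38 and -0.69). Pecam1, which supports passage between endothelial cells, was higher up to 36 h (log2FC 1.48, 1.53, 1.26 and 1.61) and 0.50 at 72 h, not called.

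Of 20 integrin activators and adaptors tested, 9, 10, 10, 9 and 11 were called higher and 0, 2, 2, 1 and 2 lower, and 8 were higher at 12, 36 and 72 h alike. Vav1, a guanine nucleotide exchange factor of blood cells (log2FC 1.42, 1.69, 2.09, 2.16 and 3.38), and the signaling adaptor Fcer1g (0.85, 1.54, 1.89, 2.36 and 2.81) were called at all 5 times. Tyrobp, the adaptor DAP12, was called from 12 h (log2FC 1.13, 1.58, 1.59 and 2.79). Of 10 extracellular integrin ligands tested, 5, 6, 8, 7 and 6 were called higher and 0, 1, 1, 1 and 1 lower. Fn1, fibronectin, the ligand of Itga5 with Itgb1, was called higher at 24 h (log2FC 0.90), 36 h (1.69) and 72 h (1.89). At 6 h it passed on adjusted p but not on fold (log2FC 0.60, adjusted p = 0.0124), and at 12 h on neither (0.13, adjusted p = 0.676). Spp1, osteopontin, was higher at all times (log2FC 2.80, 4.84, 6.10, 7.41 and 5.93), as was the matrix protein gene Emilin1 (1.85, 2.36, 2.40, 2.76 and 2.55). Tnc, tenascin C, was called from 12 h (log2FC 2.86, 5.17, 3.65 and 2.36). C3, whose fragment iC3b is bound by Mac-1, reached 20.2 ± 11.2 CPM at 72 h against 0.284 ± 0.492 CPM in Ctr (SD, n = 3).

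Among 14 cytokine, receptor and NF-kB genes known to induce endothelial adhesion molecules, 11, 12, 13, 6 and 8 were called higher from 6 h to 72 h and none lower. Their sum was 125 to 152 CPM in the controls and 270 to 463 CPM in the SE libraries, all above the controls. The receptor genes Tnfrsf1a (log2FC 2.68, 3.00, 2.94, 2.87 and 2.79) and Il1r1 (2.30, 1.60, 1.98, 2.48 and 2.47) and the NF-kB subunit gene Nfkb2 (3.18, 1.96, 3.22, 2.75 and 3.41) were called at all 5 times. Tnfrsf1b, the second TNF receptor gene, was called from 12 h (log2FC 1.51, 1.57, 1.51 and 1.97).

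**Figure D5:**
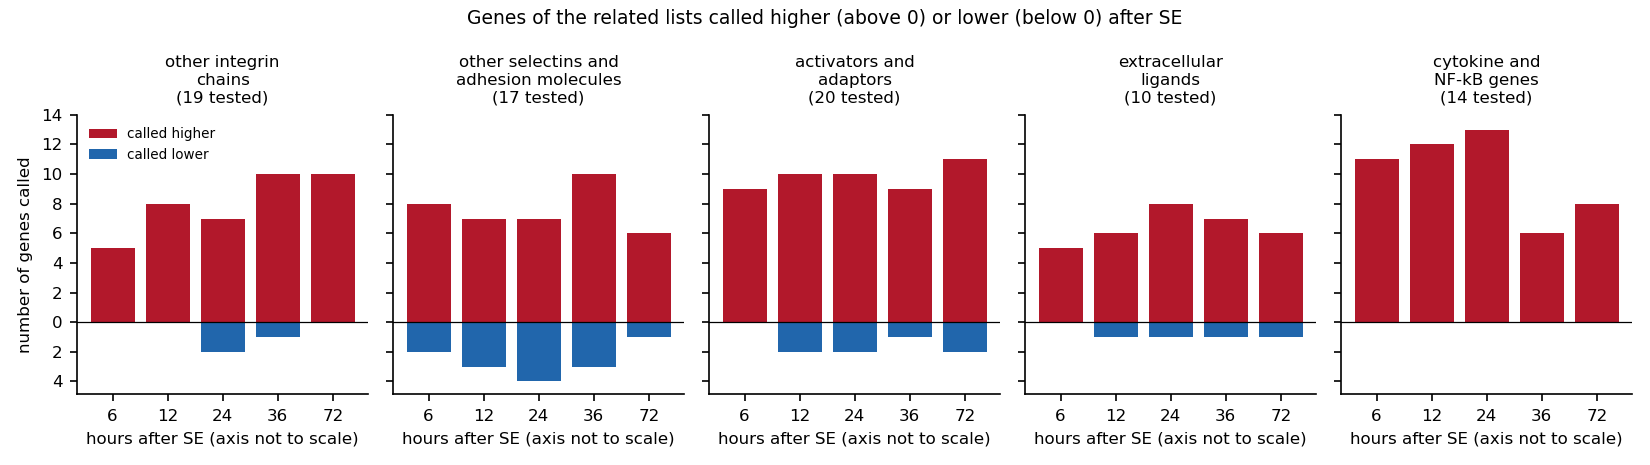
Number of genes called higher (bars above 0) or lower (bars below 0) after SE in 5 lists of related genes, by hours after SE (categories, not to scale), with the number tested above each panel. Other integrin chains called higher number 5 at 6 h and 10 at 72 h, and cytokine and NF-kB genes 13 at 24 h and 6 at 36 h. Counts at 6 h and 24 h are against all controls and the others against Ctr of the same time. A difference between such counts is therefore not a test of change over time. Between SE 24 h and SE 36 h directly, none of the 14 cytokine and NF-kB genes was called (absolute log2FC at least 1).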

How the data were processed

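RNA from CA1 was sequenced as unstranded polyA libraries (24 libraries, 3 per group). The authors deposited whole-number counts per gene; per the submitters' processing notes and the study's methods, reads were trimmed with Trim Galore 0.6.6, aligned to GRCm39 with STAR 2.7.8a, handled with SAMtools 1.10 and counted without strand by HTSeq 0.13.5. The totals (2663936 to 30133731) limit precision for rare genes such as Selp. No pair of libraries held identical counts.

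Genes were named by GENCODE M39 (18552 of 18647 matched, 95 not). Counts were fitted with edgeR 4.0.16 (R 4.3.3): TMM, filterByExpr over the 8 groups, a term per group, 1 RUVr factor, the quasi-likelihood test and Benjamini-Hochberg adjustment over 18153 genes. Called means adjusted p at most 0.05 and absolute log2FC at least 0.66 (1 between SE times). The code was tested on simulated data. Alternatives were DESeq2 1.42.0, limma-voom (limma 3.58.1), other scalings, filters, covariates and thresholds, and leaving out each library. The fits with the label ranges or with a ganglion marker score held no RUVr factor. Leaving out the 6 libraries high in ganglion markers was chosen after seeing the data, and it leaves 1 SE library at 72 h. Replicate numbers did not pair SE with Ctr libraries (r of deviations -0.201 to 0.181).

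Members and lists were chosen with earlier results of these data known. Named are all 9 members. From each list, at most 4 genes called alike at 12, 36 and 72 h, with the largest mean change and an average log2 CPM not under 0, and genes whose background role was needed were named. For each member the 2 genes most alike, at an average log2 CPM not under 1, were named. Gm49368, Gm47079, Cerkl and Cd4 were added after their values were seen. Some genes that this rule names are not reported here. Promoters were 250 bases of GRCm39. Further marker lists are in the closing section.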

Additional observations from a re-analysis of the deposited data

Results flagged for a closer look

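A difference of the SE effect between 12 and 72 h was called for 5 members, where 18.6% of all genes were called in edgeR's quasi-likelihood fit. They were Icam1 (-1.88), Vcam1 (0.92), Itgam (2.74), Itgb2 (2.24) and Itga5 (-1.27), each as a difference in log2FC. Between 36 and 72 h it was called for Itgam (2.15), Itgb2 (1.53) and Itga5 (-1.78), against 4.81% of all genes. With 1 library left out, the call between 12 and 72 h was lost in 9 of 12 fits for Itga5, 7 for Vcam1 and 3 for Icam1. That of Itga5 between 36 and 72 h was lost in 8 of 12. Among the 9 control libraries, a single library stood apart by Dixon's ratio for 4 members. Ctr 72 h replicate 1 was high in Vcam1 (43.5 CPM) and Selp (0.338 CPM, 4 counts). Ctr 72 h replicate 2, the library with the most sensory ganglion RNA, was high in Itgal (3.07 CPM) and Itgb1 (155 CPM). Chance puts about 1 in 20 groups past this limit, and the 9 controls span 3 times.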

How the results depend on the processing

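The number of members called stayed within 1.5 times the reported one under every alternative run for SE 6, 12, 24 and 36 h. At 72 h (7 called) it was 4 with a factor for the label number ranges in place of the RUVr factor. The 5 calls between consecutive SE times became 3 without the RUVr factor, 3 with the compared groups only, 1 with a larger fold threshold and 8 with adjusted p only. The 8 calls for the difference of the SE effect became 5 without the RUVr factor, 4 with limma-voom, 4 with the label ranges and 4 without the libraries high in ganglion markers. Leaving out 1 library gave 5 to 6 calls at 6 h, 6 to 6 at 12 h, 6 to 8 at 24 h, 6 to 8 at 36 h, 6 to 7 at 72 h, 4 to 6 between SE times and 5 to 7 for the difference.

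Itgal at 36 h turned to -0.043 with a ganglion marker score replacing the RUVr factor and to -0.21 without the ganglion-high libraries, and ranged from -0.26 to 0.34 with 1 library left out. Itgal at 24 h ranged from -0.28 to 0.46. Selp at 72 h turned to -1.11 with the label ranges and to -1.32 without the ganglion-high libraries, where only SE 72 h replicate 3 (2 counts) is left of its group. The cause was not tested. Of the other values for single members, 740 kept direction and side of the threshold and 62 lost the call under the alternatives that keep every replicate or drop those 6 libraries. With 1 library left out, 465 kept both, 57 lost the call and 1 gained it. The replicate block changed 1 call, Itga5 between 12 and 72 h (-1.28, adjusted p = 0.0558). Scaling by library totals moved the median log2FC of all genes at 36 h from 0.00 to 0.13 and the share of calls that were higher from 58.8% to 69.9%. Selp and Itgal held few counts (at most 43 and 56 in a library), and the effect of depth on them was not tested.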

Other observations

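The sum of the astrocyte markers was higher after SE, while single markers went both ways. The 5 markers summed to 1310 to 1720 CPM in the controls and to 2610 to 11100 CPM after SE, every SE library above every control. Their median log2FC was 0.60, 0.32, 0.34, 1.38 and 2.13 from 6 h to 72 h. Of the 5, 1, 2, 2, 3 and 3 were called higher and 0, 1, 2, 2 and 0 lower from 6 h to 72 h, and the intermediate filament gene Gfap and the water channel gene Aqp4 were called higher at 12, 36 and 72 h alike. Of 4 red cell genes none was called by edgeR up to 36 h and 2 were lower at 72 h, with sums of 22.8 to 106 CPM in controls and 9.94 to 46 CPM after SE. Of 3 choroid plexus genes tested, 1 was called higher and 1 lower at 12 h, with sums of 9.37 to 87.3 CPM in controls and 11.4 to 77.5 CPM after SE. Of 8 sensory ganglion genes tested, 1 was called higher at 6 h and 2 at 12 h, with sums of 304, 613, 770, 858 and 450 CPM in the 5 SE libraries over 100 CPM.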
